A study of Mus musculus with 11 samples.

Results

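The vascular genes followed here are 10 named genes of the vessel wall and of the vascular endothelial growth factor (VEGF) pathway: the ligand genes Vegfa, Vegfb and Vegfc, the receptor genes Kdr, Flt1, Flt4 and Tek, the junction genes Pecam1 and Cdh5, and the transcription factor gene Hif1a. They were given as a list of symbols and are 10 of the 22129 genes in the data. All 10 passed the filter on low counts, as did 12709 genes in all. RNA was sequenced from inguinal mammary glands, the mammary glands of the groin, in 11 libraries from mice on a normal chow diet, taken 16 days after delivery and labelled PND16.5 for the postnatal day. The 6 Knockout libraries have the genotype Tsc1-fl/fl; Adipoq-Cre-Tg/+, and the 5 Wild-Type libraries Tsc1-fl/fl; Adipoq-Cre-+/+, so that both groups carry floxed Tsc1 alleles, which the recombinase Cre can delete, and only the Knockout mice carry Cre. The Adipoq promoter drives Cre in adipocytes, so the other cells of the gland, endothelium included, are not targets of the design. The labels do not say whether each library came from a separate animal, and p-values then measure only the spread between these samples.

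Blood vessels are lined by endothelial cells, which carry the VEGF receptors. VEGF-A, secreted by epithelial, adipose and other cells and induced by the hypoxia-inducible factor HIF-1 when oxygen is low, binds VEGFR2 (Kdr) to drive vessel growth, while VEGFR1 (Flt1) binds VEGF-A and VEGF-B and can act as a decoy. VEGF-C acts through VEGFR3 (Flt4), chiefly on lymphatic vessels, and the angiopoietins act through TIE2 (Tek). The lactating mammary gland is rich in capillaries around its alveoli, and adipose tissue is also a densely vascular tissue.

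The 3 stretches of coding sequence below distinguish the transcripts that the isoform results rest on, in Vegfa and Flt1. They were taken from the GENCODE M21 transcripts of mouse build GRCm38, and both genes lie on the minus strand. Capitals mark the bases that one transcript has and the other lacks, and lower case marks the flanking coding bases on either side. The first is coding exon sequence at chr17:46022277-46022348 that Vegfa-207 has and Vegfa-202 lacks. The second, coding sequence at chr17:46020991-46021122, is in Vegfa-202 and is skipped in Vegfa-201. The third, at chr5:147639130-147639224, is the last 95 coding bases of Flt1-203 with the stop codon, read from the intron that follows coding exon 13 of Flt1-202.
Vegfa-207 insert: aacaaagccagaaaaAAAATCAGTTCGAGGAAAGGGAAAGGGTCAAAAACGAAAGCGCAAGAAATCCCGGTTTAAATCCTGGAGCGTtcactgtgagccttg
Vegfa-202 block: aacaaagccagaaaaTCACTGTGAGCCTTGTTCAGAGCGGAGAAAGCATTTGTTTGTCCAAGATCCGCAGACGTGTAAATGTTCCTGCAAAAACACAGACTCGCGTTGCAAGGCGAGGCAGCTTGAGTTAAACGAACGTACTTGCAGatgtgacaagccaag
Flt1-203 end: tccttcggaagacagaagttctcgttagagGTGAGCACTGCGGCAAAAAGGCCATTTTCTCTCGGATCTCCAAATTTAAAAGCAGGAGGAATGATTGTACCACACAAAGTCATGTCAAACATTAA

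Vegfa-207 encodes 392 codons, Vegfa-202 encodes 368 and Vegfa-201 encodes 146. The first 2 start 534 coding bases before Vegfa-201, at a start codon other than ATG. The stretches in capitals encode parts of VEGF-A that bind heparan sulfate and hold the protein near the cell surface and matrix. Flt1-202 encodes the full-length receptor of 1333 codons in 30 coding exons. Flt1-203 shares its first 1972 coding bases, has 13 coding exons and encodes 688 codons. An mRNA of this form encodes soluble VEGFR1, a secreted VEGF-binding protein without the membrane and kinase parts of the receptor.

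Libraries held from 25817975 to 37894237 estimated reads. The targeted gene Tsc1 measured 10.1 CPM (reads per gene, scaled so that library sizes are equal) ± 1.33 (SD, 6 Knockout libraries) against 10.7 ± 1.11 (SD, 5 Wild-Type libraries), a log2 difference of -0.09 ± 0.11 (SE; edgeR quasi-likelihood adjusted p = 0.772). Gene sums of the whole gland do not separate the deleted exons or the adipocytes, so this level does not check the deletion. Milk protein and alveolar epithelium markers, of which 5 of 7 were lower in Knockout, summed to 340444 to 477317 CPM there and to 422447 to 593707 CPM in the Wild-Type group. The summed level of 8 adipocyte markers reached 1166 to 1718 CPM in the Knockout group but 707 to 1036 CPM in the Wild-Type group, with no overlap, and 7 of the 8 were higher in Knockout. The 5 fibroblast markers, all higher in Knockout, summed to 221 to 524 CPM against 164 to 373 CPM. The sum of 5 skeletal muscle markers reached 1833 CPM in Knockout 1. All 4 tested B cell markers were lower in Knockout, each with an unadjusted edgeR p under 0.05, which 12.4% of all genes had, and none past adjustment. The 6 B cell markers listed summed to 0.808 to 13.8 CPM against 1.93 to 69.8 CPM, with the highest sum in Wild-Type 5. The 4 tested T cell markers were also lower, with sums over 5 of 1.33 to 5.11 CPM against 1.23 to 15.9 CPM. The part of these differences in the results below was not tested. The 5 endothelial markers, which are members too, summed to 66.6 to 106 CPM across Knockout libraries and to a like 66.3 to 110 CPM across Wild-Type ones.

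Levels of different genes were ordered by TPM, which corrects for transcript length. Vegfa stood far above the other members, at 43.6 TPM ± 9.57 (SD, n = 11), and was the highest of the 10 in every library. Vegfb followed at 8.03 ± 1.51, Hif1a at 6.10 ± 2.03, Pecam1 at 4.31 ± 0.920 and Cdh5 at 3.69 ± 0.904 TPM. The receptors were lower, with Kdr at 2.24 ± 0.502, Flt1 at 0.944 ± 0.279 and Tek at 0.667 ± 0.156 TPM. The lymphatic pair was lowest, with Vegfc at 0.184 ± 0.0558 and its receptor Flt4 at 0.132 ± 0.0294 TPM. The ranges over the 11 libraries were apart between Vegfa and Vegfb, between Kdr and Flt1 and between Tek and Vegfc, and the ranges of all other neighbours in this order overlapped. Within a library the order was steadier than these ranges: Cdh5, Kdr, Flt1 and Tek held places 5, 6, 7 and 8 in all 11 libraries. Vegfc was above Flt4 in 8 of 11. Of the summed TPM of the 3 VEGF ligands, Vegfa held 83.8% ± 3.61, Vegfb 15.8% ± 3.51 and Vegfc 0.375% ± 0.148 (SD, n = 11). Of the 3 VEGF receptors' sum, Kdr held 67.9% ± 3.66, Flt1 28.1% ± 3.28 and Flt4 4.02% ± 0.692 (SD, n = 11).

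No difference between the genotypes was called in any member. None of the 10 passed an adjusted p of 0.05 in edgeR's quasi-likelihood test, against 0.0551% of all genes tested (7 of 12709; 0.0472% called higher and 0.00787% called lower in Knockout), and none reached an unadjusted p of 0.05, against 12.4% of all genes. DESeq2 also called none, against 1.08% of its 13373 genes. In none of the 10 were the CPM values of the groups apart, against 1.32% of all genes. Of the members, 5 were higher and 5 lower in Knockout, with a median log2 difference of -0.01, the same as the median over all genes tested (-0.01). When library totals were used with no composition factors, the median of all genes rose to 0.18 and 9 of the 10 members were higher; none passed then either. In whole tissue, fewer cells of a type and less RNA per cell cannot be told apart.

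**Figure D1:**
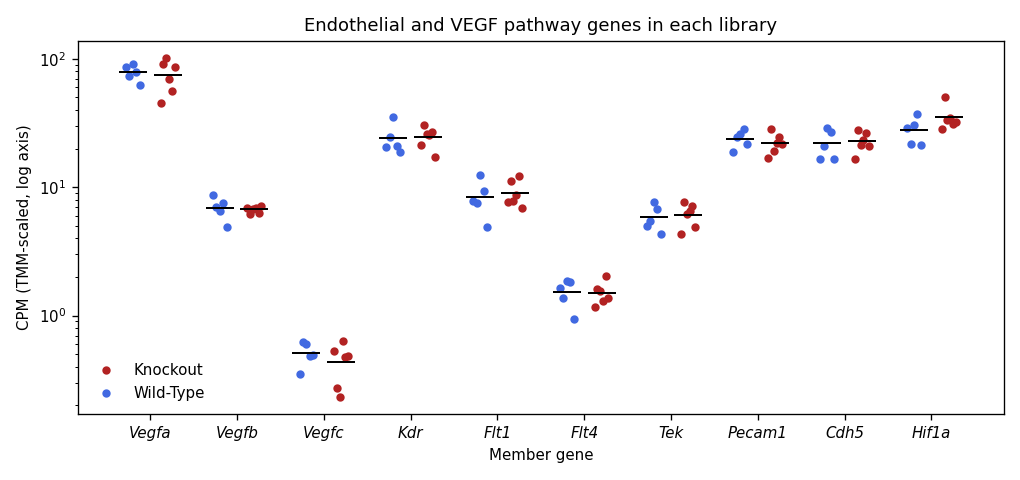
CPM of the 10 members in each library on a log axis, with Knockout libraries in red, Wild-Type libraries in blue and the group mean as a black bar. In every gene the points of the 2 groups overlap, and Knockout 2 stands above the other libraries in Hif1a at 50.1 CPM.

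Among the ligands, Vegfa (ENSMUSG00000023951, chr17:46016993-46032369) measured 44.9 to 102 CPM in Knockout, with a median of 78.2. The Wild-Type libraries 1 to 5 had 86.7, 73.6, 90.3, 79.3 and 62.7 CPM. The lowest and the highest library, Knockout 1 and Knockout 3, were both Knockout, and all 5 Wild-Type values lay between them. The group means were 75.1 ± 22.0 CPM (SD, Knockout) and 78.5 ± 10.96 CPM (SD, Wild-Type), with a log2 difference of -0.06 ± 0.19 (SE; edgeR adjusted p = 0.922). The 95% interval of the Knockout to Wild-Type ratio ran from 0.714 to 1.281.

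Vegfb (ENSMUSG00000024962, chr19:6982473-6987651), a ligand of VEGFR1 alone among the VEGF receptors, was steadier. Knockout libraries had 6.21 to 7.20 CPM with a median of 6.82, and Wild-Type libraries 1 to 5 had 8.65, 7.02, 6.503, 7.47 and 4.88 CPM. The Wild-Type values spread on both sides of the Knockout range. The log2 difference was -0.04 ± 0.12 (SE; edgeR adjusted p = 0.925), with a ratio between 0.807 and 1.17. Vegfc (ENSMUSG00000031520, chr8:54077606-54187096), the lymphatic ligand, rested on 7 to 24 counts per library. It measured 0.231 to 0.631 CPM in Knockout, with a median of 0.481, and 0.350, 0.627, 0.597, 0.486 and 0.491 CPM in Wild-Type libraries 1 to 5. Knockout 2 and Knockout 3 were the lowest and Knockout 4 the highest, with the Wild-Type libraries between them. At this depth the ratio was bounded only between 0.560 and 1.35 (log2 difference -0.20 ± 0.29 SE; edgeR adjusted p = 0.810).

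Among the receptors, Kdr (ENSMUSG00000062960, chr5:75932827-75978458), the main signalling receptor for VEGF-A, measured 17.2 to 30.2 CPM in Knockout, with a median of 25.5. Wild-Type libraries 1 to 5 had 20.6, 24.4, 35.4, 21.02 and 18.9 CPM. The highest library was Wild-Type 3 and the lowest Knockout 6. The log2 difference was 0.02 ± 0.18 (SE; edgeR adjusted p = 0.975), and the 95% interval of the ratio ran from 0.777 to 1.32.

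Flt1 (ENSMUSG00000029648, chr5:147561604-147726011) measured 6.86 to 12.3 CPM in Knockout, with a median of 8.29, and 7.81, 7.48, 12.5, 9.38 and 4.91 CPM in Wild-Type libraries 1 to 5. Both extremes were Wild-Type libraries, numbers 3 and 5, and all Knockout values lay between them. Its log2 difference was 0.10 ± 0.22 (SE; edgeR adjusted p = 0.877; ratio 0.771 to 1.498). Other processing gave larger differences, none past the threshold. With length offsets in edgeR the difference was 0.21 (edgeR adjusted p = 0.743). In limma it was 0.26 with the authors' deposited normalized values and 0.43 with TPM (limma adjusted p = 0.700 and 0.307). With TPM the median over all genes was also raised, to 0.21, and with no composition factors in edgeR Flt1 was at 0.30. The part of transcript length in these values was not tested. Flt4 (ENSMUSG00000020357, chr11:49609263-49652739), with 27 to 60 counts per library, measured 1.18 to 2.02 CPM in Knockout, median 1.46, and 1.65, 1.38, 1.85, 1.82 and 0.948 CPM in Wild-Type libraries 1 to 5. The groups overlapped, with the highest library in Knockout and the lowest in Wild-Type (log2 difference -0.03 ± 0.20 SE; edgeR adjusted p = 0.962; ratio 0.719 to 1.32).

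Tek (ENSMUSG00000006386, chr4:94739289-94874976), the angiopoietin receptor gene, measured 4.29 to 7.61 CPM in Knockout, with a median of 6.32. Wild-Type libraries 1 to 5 had 4.97, 5.43, 7.63, 6.74 and 4.28 CPM. The groups spanned nearly the same range, with a log2 difference of 0.06 ± 0.18 (SE; edgeR adjusted p = 0.915; ratio 0.798 to 1.37).

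Pecam1 (ENSMUSG00000020717, chr11:106654217-106750628), which encodes the endothelial adhesion protein CD31, measured 16.9 to 28.5 CPM in Knockout, with a median of 21.9. Wild-Type libraries 1 to 5 had 18.9, 24.6, 25.9, 28.5 and 21.6 CPM. The highest values of the groups were nearly equal, in Knockout 2 and Wild-Type 4, and the lowest was Knockout 1. The log2 difference was -0.11 ± 0.14 (SE; edgeR adjusted p = 0.774; ratio 0.754 to 1.14). Cdh5 (ENSMUSG00000031871, chr8:104101625-104144511), the gene of VE-cadherin at endothelial junctions, measured 16.55 to 28.1 CPM in Knockout, with a median of 22.4, and 16.53, 20.8, 28.6, 27.0 and 16.6 CPM in Wild-Type libraries 1 to 5. The Wild-Type values fell at both ends of the Knockout range (log2 difference 0.06 ± 0.17 SE; edgeR adjusted p = 0.925; ratio 0.800 to 1.35).

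Hif1a (ENSMUSG00000021109, chr12:73901375-73947530), the gene of the oxygen-regulated subunit of HIF-1, had the largest difference of the 10. Knockout libraries measured 28.6 to 50.1 CPM with a median of 32.8, and Wild-Type libraries 1 to 5 measured 28.8, 21.5, 30.2, 37.4 and 21.3 CPM. The 2 lowest libraries were Wild-Type 2 and 5 and the highest was Knockout 2, but Wild-Type 4 was above 5 of the 6 Knockout libraries. The mean was 35.0 CPM ± 7.67 (SD, n = 6) against 27.9 ± 6.72 (SD, n = 5), a log2 difference of 0.33 ± 0.17 (SE; edgeR adjusted p = 0.468), with a ratio between 0.968 and 1.63. Without Knockout 2 the log2 difference was 0.20 (edgeR adjusted p = 0.620), and without Wild-Type 4 it was 0.46 (0.248). With no composition factors it was 0.51 and with TPM 0.54, neither past the threshold. HIF-1 is regulated mostly through the stability of its protein, which RNA does not show.

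**Figure D2:**
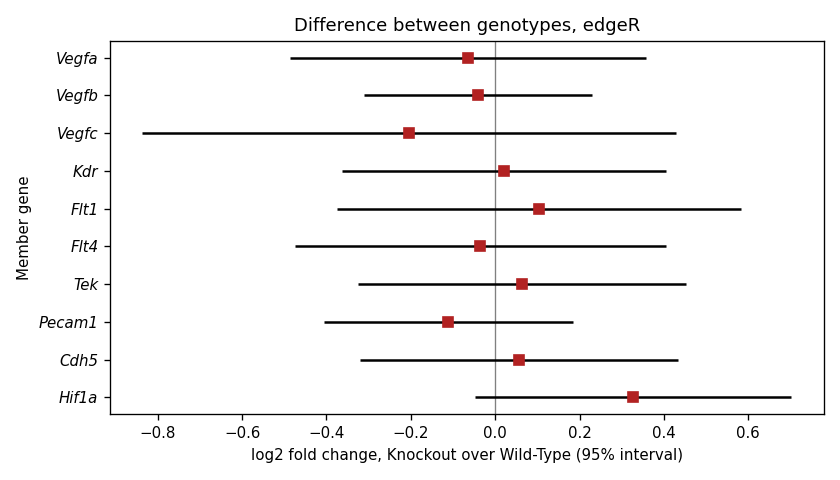
Log2 fold change of each member, Knockout over Wild-Type, from edgeR (red squares) with its 95% interval (black lines) and 0 as a grey line. All 10 intervals cross 0; that of Hif1a reaches furthest to the right and that of Vegfc furthest to the left.

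Transcript splits were compared for members with 2 or more transcripts of at least 5% of the reads, which gave 15 transcripts. The smallest p was in Flt1. The soluble-type transcript Flt1-203 held 19.6%, 15.6%, 17.7%, 13.5%, 12.7% and 24.1% of the Flt1 reads in Knockout libraries 1 to 6, and 8.34%, 12.8%, 8.93%, 7.86% and 9.70% in Wild-Type libraries 1 to 5. All Knockout libraries but number 5 were above every Wild-Type library, and Knockout 5 was just below Wild-Type 2. The mean share was 17.2% ± 4.24 (SD, n = 6) against 9.53% ± 1.95 (SD, n = 5), a difference of 7.64 percentage points. The exact two-sided permutation test over 462 splits gave p = 0.0108, and 0.0812 after Benjamini-Hochberg adjustment over the 15 transcripts. Flt1-202 is its mirror image, and with 1 transcript kept of each such pair the exact permutation adjusted p was 0.130, so the shift did not pass the threshold. On the length-corrected TPM scale the shares were 30.4% and 18.3%.

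In CPM, Flt1-203 measured 1.49, 1.73, 1.39, 1.17, 1.55 and 1.65 in Knockout libraries 1 to 6 and 0.651, 0.957, 1.12, 0.738 and 0.477 in Wild-Type libraries 1 to 5. These levels were looked at after the shares were seen. Every Knockout library was above every Wild-Type library, a separation that 1.13% of the 18612 transcripts tested had. The nearest values were 1.17 in Knockout 4 and 1.12 in Wild-Type 3. The means stood at 1.499 ± 0.198 CPM (SD, n = 6) for Knockout against 0.788 ± 0.252 CPM (SD, n = 5), a ratio of 1.90. Full-length Flt1-202 had nearly equal means, 7.58 ± 2.10 and 7.63 ± 2.59 CPM, as the plot of the Flt1 transcripts shows. Fitted over all transcripts with edgeR, an analysis added after the shares were seen, Flt1-203 had a log2 difference of 0.91 ± 0.24 (SE; adjusted p = 0.409), and Flt1-202 one of -0.01 ± 0.25 (adjusted p = 0.997). In that fit 1 transcript passed (0.00537%), and 8.74% had an unadjusted p under 0.05.

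The Flt1-203 values rested on 13.6 to 67.3 estimated reads per library. Its own end, printed above, is 95 of its 2067 coding bases, so the split of reads over the shared bases was estimated by the quantifier. That end holds 65 words of 31 bases, of which 0 occur in transcripts of other genes. Because this end lies in an intron of Flt1-202, the estimated reads do not show whether the RNA was a finished soluble-receptor mRNA or unspliced Flt1 RNA, which was not tested. The summed adipocyte markers also had no overlap between the genotypes, although each of the 8 markers alone overlapped, and most of the sum was Cfd (905 CPM on average in Knockout, 527 in Wild-Type). Of the 8, 4 had an unadjusted edgeR p under 0.05, against 12.4% of all genes, and none passed adjustment. DESeq2 called 3, against 1.08% of all its genes. These were Cfd, Fabp4 and Adipoq, all higher in Knockout, with Adipoq close to the threshold (DESeq2 adjusted p = 0.04997). Their part in the Flt1-203 difference was not tested.

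**Figure D3:**
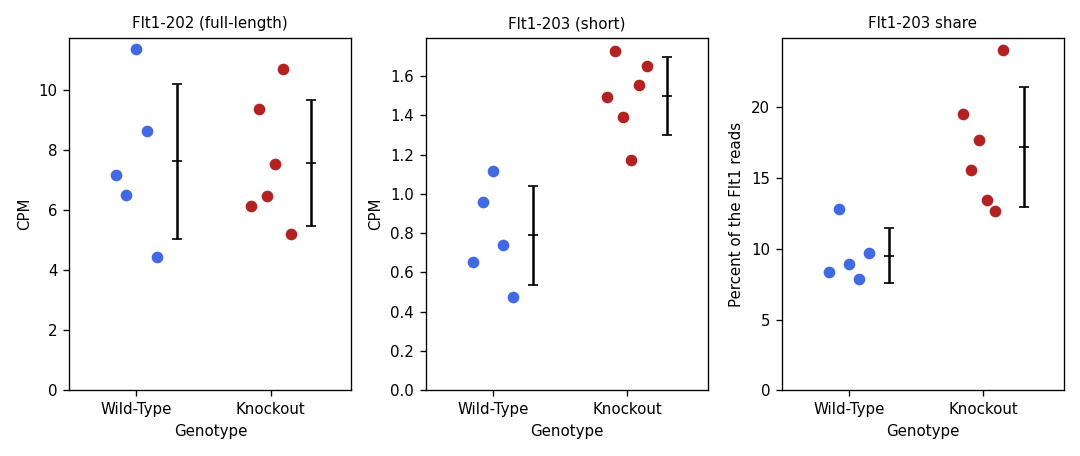
CPM of full-length Flt1-202 (left) and of the short Flt1-203 (middle), and the percent of Flt1 reads assigned to Flt1-203 (right), by genotype; points are libraries and bars beside them the mean ± SD. The Flt1-202 groups overlap throughout, the Flt1-203 CPM groups do not overlap, and the shares overlap in 1 Knockout and 1 Wild-Type library.

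In Vegfa, the 3 transcripts had close proportions in both genotypes. Vegfa-202, which lacks the 72-base insert, held 83.6% ± 1.65 (SD, n = 6) of the Vegfa reads in the Knockout group against 84.1% ± 1.80 (SD, n = 5). Vegfa-207, with the insert, held 9.08% ± 1.44 and 9.11% ± 1.73, and Vegfa-201, without the 132-base block, 7.05% ± 1.29 and 6.66% ± 0.923. The exact permutation adjusted p of each was 0.918 or above. Per length (TPM), Vegfa-201 held 29.1% and 27.98%, since it is the shortest of them. The differences in share were between -0.44 and 0.39 percentage points, below the SD of each group.

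In Hif1a, the shorter Hif1a-202 of 810 codons held 25.2% ± 4.99 (SD, n = 6) of the reads in the Knockout group against 19.6% ± 2.95 (SD, n = 5). The rest fell to Hif1a-201 of 836 codons. The ranges, 20.3% to 32.2% and 16.55% to 22.9%, overlapped (exact permutation p = 0.0563, adjusted p = 0.211, or 0.338 with mirror images left out). Vegfb-202 held 50.7% ± 2.82 and 50.6% ± 2.94 of the Vegfb reads, an even split with Vegfb-201 in both genotypes. In Pecam1 the 4 compared transcripts shifted by -2.60 to 6.25 percentage points with adjusted p of 0.610 or above. In Tek, Tek-203 held 56.1% ± 12.3 and 46.2% ± 25.9 (exact permutation adjusted p = 0.918), and the Wild-Type spread came from 1 library listed at 0. In all, 0 of the 15 transcripts passed the adjusted threshold, and 2, the mirror-image pair of Flt1, had an unadjusted p under 0.05.

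Ratios within a library compare endothelial genes with each other rather than with all RNA of the gland. Relative to Cdh5, Pecam1 averaged a log2 ratio of -0.04 ± 0.09 over the 6 Knockout libraries (mean ± SD) and 0.15 ± 0.20 over the 5 Wild-Type libraries. The difference of -0.19 did not pass (exact permutation p = 0.0649, adjusted p = 0.390 over 6 ratios), though without Wild-Type 3 it was -0.26 and did (exact permutation adjusted p = 0.0286). The ratios of Kdr, Flt1, Flt4 and Tek to Cdh5 differed by -0.04, 0.06, -0.08 and -0.01, and that of Vegfa to Vegfb by -0.09. Their exact permutation adjusted p ran from 0.904 to 0.931. The Tek to Cdh5 ratio was the steadiest, with an SD of 0.10 over the 11 libraries against 0.17 to 0.24 for the other endothelial ratios.

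The 6 endothelial genes Kdr, Flt1, Flt4, Tek, Pecam1 and Cdh5 varied together among the libraries. All 15 of their pairs were positively correlated in log2 CPM over the 11 libraries, with Pearson r from 0.46 to 0.95 and a median of 0.78. Of these, 8 passed an adjusted p of 0.05 in permutation tests with 100000 resamples, adjusted over all 45 pairs of members. Tek with Cdh5 was the closest pair, at r = 0.95 (permutation adjusted p = 0.00045; Spearman rho 0.91; r = 0.91 without the 2 libraries farthest from the median). Flt1 with Tek followed, at r = 0.88 (permutation adjusted p = 0.0027, rho 0.95). Flt1 with Flt4 had r = 0.86 (permutation adjusted p = 0.0122), and Pecam1 with Cdh5 0.83 (0.0182).

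The other passing pairs were Flt1 with Cdh5 (r = 0.83), Kdr with Tek (0.81), Kdr with Flt1 (0.80) and Flt4 with Tek (0.78). Within the 6 Knockout libraries all 15 pairs were again positive, from 0.55 to 0.95. No such value was computed for the 5 Wild-Type libraries, since 6 was taken as the smallest number for a correlation. With the genotype means removed, 9 pairs passed. The number of passing pairs rested partly on single libraries: it was 5 without Wild-Type 3 and 3 without Wild-Type 5. Both genes of a pair share the scaling of their library, and without composition factors 11 of the 15 passed.

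**Figure D4:**
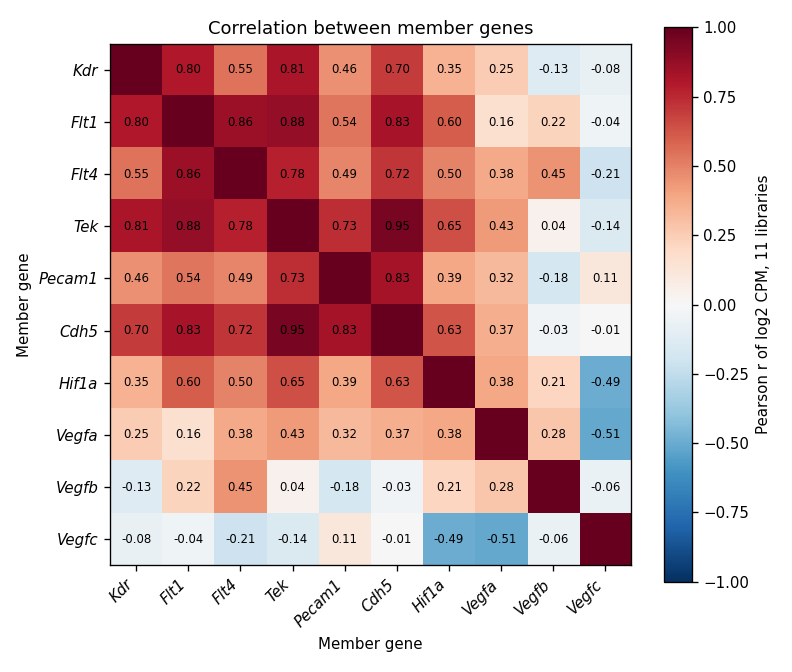
Pearson r of log2 CPM over the 11 libraries for each pair of members, from -1 (blue) to 1 (red). The 6 endothelial genes at the upper left form a red block from 0.46 to 0.95, and pairs that hold a VEGF ligand range from -0.51 to 0.45; the diagonal is each gene with itself.

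Pairs with a ligand gene or Hif1a had r from -0.51 to 0.65; whether they differ from the endothelial pairs was not tested. Of the 30 pairs with at least 1 gene from outside the 6, none passed, and the smallest permutation adjusted p was 0.102. Vegfa correlated with the 6 genes at r from 0.16 to 0.43, and with Hif1a at 0.38 (permutation adjusted p = 0.436). The 18 pairs of a VEGF ligand with an endothelial gene had a median r of 0.078 over the 11 libraries, and 10 were positive. Within the 6 Knockout libraries their r ran from -0.93 to 0.42 with a median of -0.34, and 5 were positive; the lowest was Vegfb with Flt1. Leaving out Knockout 1 and Knockout 5, the libraries farthest from the Vegfa median, gave r = 0.56 for Vegfa with Hif1a. Hif1a was positive with all 6, at 0.35 to 0.65, which overlaps the endothelial pairs. Without composition factors these r were 0.56 to 0.78, and 14 of the 45 pairs passed, 11 of them endothelial. Vegfc had the lowest r of all pairs, -0.51 with Vegfa (permutation adjusted p = 0.275), at its few counts.

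The libraries at the ends of the endothelial range came from both genotypes. In Wild-Type 5, Knockout 1 and Knockout 6, all 6 genes were below their means over the 11 libraries, with average log2 deviations of -0.44, -0.32 and -0.21. In Knockout 5, Knockout 2 and Wild-Type 3, all 6 were above, by 0.30, 0.32 and 0.40. Of the low libraries, Wild-Type 5 had the highest sums of B cell, T cell, macrophage and lymph node stroma markers. Knockout 1 had the highest sums of skeletal muscle and adipocyte markers and the lowest of milk protein and alveolar epithelium markers. The part of these markers' cells in the endothelial levels was not tested.

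**Figure D5:**
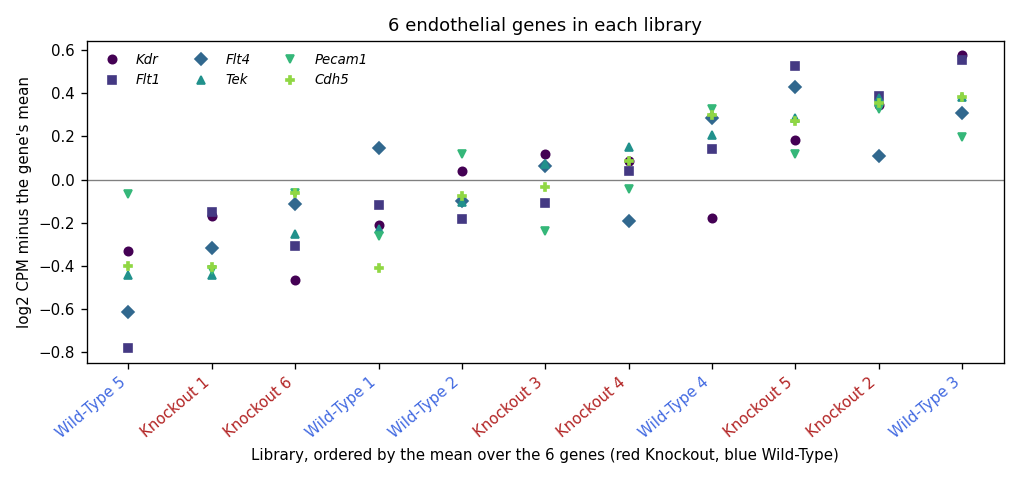
Deviation of log2 CPM from the gene's mean over 11 libraries for the 6 endothelial genes, with libraries ordered by the mean over the genes and names in red for Knockout and blue for Wild-Type. Wild-Type 5, Knockout 1 and Knockout 6 at the left lie wholly below 0, and Knockout 5, Knockout 2 and Wild-Type 3 at the right wholly above it.

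Promoter sequence is shown for Tek, Kdr and Flt1, 3 receptor genes that moved together among the libraries. The windows run from 250 bases before to 50 bases after the RefSeq start, in build GRCm38.p6; 8 of the 10 members had an entry, and Pecam1 and Cdh5 did not. Capitals mark matches on either strand to CCGGAA or CAGGAA, strings among those bound by ETS factors, a family that includes endothelial regulators. Other strings that ETS factors bind were not searched and are not marked. The windows are chr4:94739039-94739338 (plus strand) for Tek, chr5:75978406-75978705 (minus) for Kdr and chr5:147725962-147726261 (minus) for Flt1.
Tek promoter: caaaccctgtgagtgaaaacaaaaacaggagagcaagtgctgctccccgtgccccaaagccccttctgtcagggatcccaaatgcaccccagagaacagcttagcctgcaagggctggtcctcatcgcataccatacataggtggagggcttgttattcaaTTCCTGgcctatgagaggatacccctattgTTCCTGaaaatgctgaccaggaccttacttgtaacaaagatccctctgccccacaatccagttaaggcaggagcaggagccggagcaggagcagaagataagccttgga
Kdr promoter: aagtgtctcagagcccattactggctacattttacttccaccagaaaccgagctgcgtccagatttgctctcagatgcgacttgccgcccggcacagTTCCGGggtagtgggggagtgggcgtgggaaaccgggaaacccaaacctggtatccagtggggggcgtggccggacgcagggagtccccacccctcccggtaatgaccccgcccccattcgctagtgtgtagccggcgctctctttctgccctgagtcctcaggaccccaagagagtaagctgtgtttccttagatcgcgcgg
Flt1 promoter: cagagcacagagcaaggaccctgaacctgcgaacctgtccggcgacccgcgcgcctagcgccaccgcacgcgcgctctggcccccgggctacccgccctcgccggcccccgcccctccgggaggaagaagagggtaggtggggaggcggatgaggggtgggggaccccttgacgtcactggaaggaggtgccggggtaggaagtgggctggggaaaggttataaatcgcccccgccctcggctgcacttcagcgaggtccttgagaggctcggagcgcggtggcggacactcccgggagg

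The Tek window held 2 matches to CAGGAA and the Kdr window 1 to CCGGAA, all on the opposite strand, and the Flt1 window had neither string. CAGGAA also had 1 match each in the windows of the ligand genes Vegfa (the first window) and Vegfc. The Flt4, Vegfb and Hif1a windows had neither string. Over 32851 mouse promoters of the same length, 30.6% held CAGGAA and 14.9% held CCGGAA, so single matches are common. The HIF core ACGTG, present in 19.6% of promoters, occurred in the Hif1a window and in the second of the 2 Vegfa windows. That second window, chr17:46025114-46025413, lies inside the Vegfa gene. The Vegfa window at the start of the gene, chr17:46032328-46032627, held neither ACGTG nor GCGTG. The other HIF core, GCGTG, in 32.4% of promoters, had 2 matches each in the Vegfb and Kdr windows and 1 each in the Flt1 and the second Vegfa windows. These are matches of letters, not measured binding.

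Of 87 other listed pathway genes tested, none passed edgeR's adjusted p of 0.05; 7 of them were higher and 2 lower in Knockout with an unadjusted p under 0.05, which 12.4% of all genes had. DESeq2 called 1, described last, against 1.08% of all genes, and the groups did not overlap in 2, against 1.32%. These counts are given as a description. Of the remaining VEGF ligands and co-receptors, 3 of 4 were higher in Knockout. Vegfd, a second ligand of VEGFR3, was at 0.838 CPM ± 0.388 (SD, n = 6) and 0.417 ± 0.0842 (SD, n = 5), with 9 to 42 counts and every Knockout library above every Wild-Type one (log2 difference 1.00 ± 0.33 SE; edgeR adjusted p = 0.286). The VEGFR1 ligand gene Pgf had a log2 difference of -0.24, and the co-receptor genes Nrp1 and Nrp2 had 0.12 and 0.05 (edgeR adjusted p = 0.644 or above).

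All 5 tested angiopoietin and TIE genes were higher in Knockout, with a median log2 difference of 0.21. The TIE2 agonist gene Angpt1 differed by 0.45 ± 0.19 (SE; edgeR adjusted p = 0.376), Angpt2 by 0.21, Tie1 by 0.06 and the endothelial phosphatase gene Ptprb by 0.49 ± 0.15 (adjusted p = 0.275). Tek itself, the angiopoietin receptor gene, differed by 0.06. Of 25 other pan-endothelial genes tested, 14 were higher and 11 lower, with a median of 0.02. Among them the von Willebrand factor gene Vwf differed by 0.17, and the guidance receptor gene Robo4 by -0.41 ± 0.16 (edgeR adjusted p = 0.341). The Robo4 difference was -0.23 with no composition factors, -0.18 with TPM and -0.14 with the authors' deposited normalized values.

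Of the 10 tested Notch and tip cell genes, 7 were higher, and the endothelial Notch receptor gene Notch4 differed by -0.45 ± 0.17 (SE; edgeR adjusted p = 0.347), or by -0.26 with no composition factors and -0.17 with TPM. Of 3 tested lymphatic genes 2 were higher, with the lymphatic transcription factor gene Prox1 at 0.46 (edgeR adjusted p = 0.495), and at 0.26 without Knockout 1. Of 9 pericyte and vascular smooth muscle genes 3 were higher, with Abcc9, a channel subunit gene of pericytes, at 0.46 (edgeR adjusted p = 0.444).

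In the oxygen pathway, of 7 tested HIF subunit and oxygen sensor genes 3 were higher: the HIF-2 subunit gene Epas1 differed by 0.13 (0.0056 without Knockout 5), the partner subunit gene Arnt by 0.13, Vhl, whose protein marks HIF subunits for degradation, by -0.03, and the oxygen-sensing hydroxylase gene Egln1 by -0.17 (edgeR adjusted p = 0.445 or above). Of 14 tested HIF target genes 5 were higher and 9 lower, with a median of -0.07. The target with the smallest p was Ddit4, a stress-induced inhibitor of mTORC1, at -0.61 ± 0.28 (SE; edgeR adjusted p = 0.404); without Wild-Type 1 it was -0.33, and with TPM -0.35.

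Of 10 other angiogenic ligands and inhibitors, 8 were higher in Knockout. Thbs2, the gene of the secreted angiogenesis inhibitor thrombospondin-2, had the smallest p of any list. It measured 4.196 to 8.74 CPM in the 6 Knockout libraries and 2.59, 3.51, 2.89, 1.70 and 2.56 CPM in Wild-Type libraries 1 to 5, with no overlap. The log2 difference was 1.19 ± 0.22 (SE; edgeR adjusted p = 0.104), and DESeq2 gave an adjusted p of 0.000289 for it, the only call of DESeq2 in these pathway lists. With no composition factors edgeR's adjusted p was 0.0141. Thbs2 is also made by fibroblasts, whose 5 markers were all higher in Knockout; the part of this in the result was not tested.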

How the data were processed

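Per the labels, total RNA of 11 inguinal mammary glands was made into directional Illumina libraries. Salmon 1.3.0, DESeq2 1.28.1 and GRCm38.p6 are named in the submitters' processing notes. Per the file headers, the authors deposited per transcript TPM (abundance per length, to a common total) and estimated counts. Over 94.3% of 56855 transcripts the listed length is 0 to 3 bases above the GENCODE M21 coding length, so untranslated regions were mostly not counted. The authors also deposited a gene table of normalized values, a signal used only as an alternative. Estimated counts were summed per gene (57378 of 58204 transcripts matched GENCODE M21; unmatched ones held 0.200% to 0.272% of reads) and rounded.

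The groups were compared with edgeR 4.0.16 in R 4.3.3 (TMM, filterByExpr, robust quasi-likelihood test, genotype only, Benjamini-Hochberg over 12709 genes, threshold 0.05); the script was tested on simulated data. DESeq2 1.42.0, limma 3.58.1, other scalings, filters and left-out libraries were alternatives. CPM are TMM-scaled, and log2 CPM used a prior count of 2. Shares and ratios were compared with exact permutation tests over all 462 splits, whose smallest p is 0.00433. Counting depth limits Vegfc and Flt4 most, and counts without molecular identifiers cover counting error only. Salmon's split of reads between transcripts is an estimate whose error the tables do not give. Cdh5 and Hif1a overlap other annotated genes, an antisense one in each case; the strand setting of the quantification is not given in the sources used here.

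Members and lists were chosen with earlier results of these data known. Besides the members, 11 pathway genes, and in each list the genes past the threshold or else the one with the smallest p, are named, with the 5 genes most like Cdh5 and Vegfa, of which 1 is not reported here.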

Additional observations from a re-analysis of the deposited data

Results flagged for a closer look

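A library was set apart where its gap to the nearest other library of its genotype was a large part of the group's range (Dixon's test at 95%). Of 100 sets of values searched, 7 had such a library, where chance gives about 1 in 20. Hif1a was at 50.1 CPM in Knockout 2 against 28.6 to 34.3 in the other Knockout libraries. Epas1, the HIF-2 subunit gene, was at 68.0 CPM in Knockout 5 against 36.7 to 48.3. Arnt, the shared partner subunit gene, was at 18.9 CPM in Wild-Type 3 against 16.96 to 17.4 in the other Wild-Type libraries. The endothelial receptor gene Notch4 was at 12.99 CPM in Wild-Type 5 against 21.3 to 23.8, in the library where the mean deviation of the 6 endothelial members was also lowest.

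The Tek transcript Tek-203 was listed at 0% of Tek reads in Wild-Type 1 against 54.2% to 61.0% in the other Wild-Type libraries. The log2 ratio of Kdr to Cdh5 was -0.36 in Wild-Type 4 against 0.19 to 0.31, in a library with Kdr at 21.02 CPM, the Wild-Type median, and Cdh5 at 27.0 CPM. The log2 ratio of Flt4 to Cdh5 was -3.28 in Wild-Type 1 against -4.04 to -3.84, where Cdh5 was low and Flt4 was not.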

How the results depend on the processing

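No member passed an adjusted p of 0.05 in any alternative in which it was tested. Vegfc was not tested with the filter of at least 1 CPM in at least 5 libraries. The number of genes called was 7, but 145 with DESeq2, 4 with TPM in limma and 0 to 28 when each library was left out in turn. The labels do not state that the replicate numbers pair the samples. Same-numbered deviations had correlations from -0.22 to 0.19, which do not settle whether the samples were paired. With the replicate number as a block, 0 genes passed, no member did, and Vhl had a log2 difference of 0.0044. With no composition factors the log2 differences turned positive in Vegfa (0.12), Vegfb (0.15), Flt4 (0.15), Pecam1 (0.068), Vhl (0.16) and Egln1 (0.026), and 14 of the 45 member pairs passed rather than 8. With TPM they did so in Vegfa (0.14), Vegfb (0.21), Flt4 (0.12), Pecam1 (0.11), Pgf (0.012), Vhl (0.20) and Egln1 (0.057), where the median of all genes was 0.21; Kdr was then at 0.26, Tek at 0.26, Cdh5 at 0.31 and Vegfc at -0.015.

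Leaving out each library in turn, log2 differences ran from -0.17 to 0.054 in Vegfa, -0.14 to 0.054 in Vegfb, -0.33 to -0.078 in Vegfc, -0.19 to -0.036 in Pecam1, -0.056 to 0.20 in Kdr, -0.040 to 0.29 in Flt1, -0.17 to 0.044 in Flt4, -0.031 to 0.18 in Tek, -0.030 to 0.17 in Cdh5, -0.42 to 0.12 in Pgf, -0.051 to 0.15 in Nrp2, -0.013 to 0.14 in Tie1, -0.14 to 0.077 in Vhl, 0.12 to 0.34 in Angpt2 and 0.087 to 0.27 in Vwf. Shares moved, in percentage points, from -1.01 to 0.12 in Vegfa-202, -0.69 to 0.44 in Vegfa-207, -0.96 to 1.04 in Vegfb-202, -1.62 to 13.6 in Tek-203, -5.14 to 1.62 in Tek-201, -4.87 to 0.53 in Pecam1-204 and 2.70 to 8.44 in Pecam1-202. Flt1-203 stayed between 6.26 and 8.54 points, with adjusted p of 0.0595 to 0.143 (exact permutation). Log2 ratios to Cdh5 ran from -0.16 to 0.038 for Kdr, -0.021 to 0.15 for Flt1, -0.15 to 0.042 for Flt4 and -0.031 to 0.037 for Tek, and that of Vegfa to Vegfb from -0.19 to 0.053; of the 6 ratios, 0 to 1 passed. Of the endothelial pairs 3 to 9 passed. The cause of these changes was not tested.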

Other observations

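Among the genes whose log2 CPM followed Cdh5 most closely over the 11 libraries, of all 12709 tested, were Tek (Pearson r = 0.95), Cavin2 (0.90), Selp (0.90) and Usp30 (0.89). Cavin2 encodes a coat protein of caveolae and Selp the endothelial and platelet adhesion receptor P-selectin. Those closest to Vegfa were Inafm1 (0.92), Scnn1b (0.92), Sytl3 (0.90), Top1mt (0.89) and Smim4 (0.89), of which Scnn1b encodes a subunit of the epithelial sodium channel. No endothelial member was among the genes closest to Vegfa. These values describe the highest of many correlations over few libraries and carry no test.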
